A study of Mus musculus with 9 samples.

Results

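The genes described here are 49 genes of DNA replication and S phase, chosen by name for their known roles in origin licensing, helicase activation, the replication fork, nucleotide supply, E2F control, homologous repair, the replication checkpoint and chromatin assembly. The list was drawn up with earlier results of these data known. All 49 were found among the 50686 genes of the count table, and all 49 were among the 15531 genes that passed the filter on low counts. Their levels were compared by RNA-Seq in 3 groups with n = 3 libraries each. The control group was untreated MC3T3-E1 cells, a mouse osteoblast line. The SB216763 group was MC3T3-E1 cells given 10 μM SB216763, an inhibitor of the GSK3 kinases, for 14 days. The third group was mouse pulmonary endothelial cells (ECs), isolated by FACS and labelled as given no treatment. The osteoblasts come from 1 line, nothing in the sources used here says that the libraries of a group came from separate cultures or animals, and p-values therefore measure only the spread between these libraries. The time in culture of the control cells and the density of the cells at harvest are not given in the sources used here.

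A cell copies its genome once in each division. In G1, the origin recognition complex, Cdc6 and Cdt1 load the MCM2-7 helicase onto origins, which is called licensing, and geminin then prevents a second round. At the start of S phase, Cdc45, the GINS complex and Mcm10 turn the loaded MCM rings into active helicases, and polymerases, primase, the clamp Pcna and its loader copy the strands with nucleotides made by ribonucleotide reductase and thymidylate synthase. Many of these genes are transcribed in G1 and S phase under the E2F factors, of which E2f1 and E2f2 are activators and E2f7 and E2f8 are repressors that are themselves E2F targets.

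The libraries held 30990107 to 68946333 counts, and the biological coefficient of variation was 0.0554. Levels are given as CPM, counts scaled to library size, after TMM normalization, and 3 counts, taken as the smallest level that a library can show, corresponded to 0.0473 to 0.104 CPM, which covers counting error only. The 49 genes were well above that level, with 14 to 16471 counts in every library. The labels of the 3 groups were checked against marker genes. The summed level of 8 endothelial markers was 6465 to 6600 CPM in the ECs. It was 2.63 to 3.30 CPM in the controls and 2.45 to 3.01 CPM after SB216763. At an FDR under 0.01, 0 of the 8 differed between treated and control cells, beside 32% of all genes tested that were lower and 32.9% higher. At levels this low a difference is hard to call. The treated libraries were all below the controls for 2 of the 8 and all above for 0, beside 35.9% and 37.3% of all genes. The summed level of 6 osteoblast markers was 43916 to 59344 CPM in the controls and 8066 to 8338 CPM after SB216763. In the ECs it was 45.1 to 64.5 CPM. At an FDR under 0.01, 6 of 6 were lower in treated than in control cells, beside 32% of all genes. The 5 markers of lung mesenchyme include several that osteoblasts also express. They summed to 8077 to 8746 CPM in the controls, 1470 to 1507 CPM after SB216763 and 45.7 to 49.2 CPM in the ECs. These sums do not describe each marker. At an FDR under 0.01, 2 of the 5 were lower and 2 higher after SB216763, with log2 fold changes from -4.34 to 1.56. In controls against ECs, 4 were higher and 1 lower, beside 37.9% and 39% of all genes. The sum of 6 leukocyte markers was 26.6 to 28.3 CPM in the controls and 8.54 to 10.1 CPM after SB216763. In the ECs it was 57.2 to 59.7 CPM. Of the 6, Cd3e was at 0 in each library, and 3 passed the filter on low counts. At an FDR under 0.01, 2 of these 3 were lower and 1 higher after SB216763 (log2 fold changes from -1.88 to 1.63). In controls against ECs, 2 were lower and 1 higher (-6.47 to 1.32). The summed level of 4 epithelial markers was at most 0.208 CPM in any library. The part of these marker changes in the results on replication genes was not tested.

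The promoters of the 49 genes were read for the letters of E2F sites, because E2F control is what the licensing and fork genes are known to share. RefSeq promoters (250 bases before to 50 after the start of transcription, GRCm38.p6) were matched for 39 of the 49 genes, with 44 promoters. The letters TTTCCCGC, TTTCGCGC, TTTGCCGC or TTTGGCGC, on either strand, were present in 16 of the 44 promoters (36.4%), belonging to 16 genes, beside 2.26% of all 32851 mouse promoters of that length and 3.73% of the 13875 promoters of genes tested. CCAAT was present in 59.1% of the 44, beside 37.4% and 37.7%, and TTTGAA, the core of the CHR element of late cell cycle genes, in 13.6%, beside 17.9% and 12.3%. A match describes these letters and is not a site shown to be bound, and the part of base composition in these shares was not tested. No RefSeq promoter was matched for Exo1, Gins1, Gins2, Gins4, Gmnn, Mcm4, Pole, Prim2, Rfc2 and Tipin. The stretches below are shown because they hold the E2F letters, in capitals, upstream of the RefSeq start and outside the exons of GENCODE release M21 in the 5 genes of that kind that fell the most after SB216763. The stretch of Cdc6 lies inside the gene as GENCODE bounds it, between its exons, since a GENCODE start lies further upstream than the RefSeq start. In Mcm5 the capitals cover a match on each strand that overlap each other. Each is written 5′ to 3′ on the strand of its gene, with GRCm38 coordinates.
Mcm5, chr8:75109334-75109393, plus strand: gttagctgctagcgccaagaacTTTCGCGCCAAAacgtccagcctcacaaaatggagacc
E2f7, chr10:110745215-110745274, plus strand: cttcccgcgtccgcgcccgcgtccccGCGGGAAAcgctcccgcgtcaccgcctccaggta
Cdc6, chr11:98907987-98908046, plus strand: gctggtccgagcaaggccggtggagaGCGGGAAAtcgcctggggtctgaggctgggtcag
Mcm6, chr1:128359719-128359778, minus strand: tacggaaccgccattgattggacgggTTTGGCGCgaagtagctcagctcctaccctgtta
Pola1, chrX:93632260-93632319, minus strand: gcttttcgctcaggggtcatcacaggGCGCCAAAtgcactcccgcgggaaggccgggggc

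All 49 replication genes were lower in SB216763-treated than in control osteoblasts. Since the list was chosen with earlier results of these data known, this count describes these genes and not replication genes at large. Rrm2, the small subunit of ribonucleotide reductase, Mcm5, a subunit of the helicase, and E2f7, an E2F repressor, were among those with the largest falls. E2f1, an E2F activator, had the smallest. At an FDR under 0.01, 49 of 49 were lower and 0 were higher (quasi-likelihood test of edgeR, Benjamini-Hochberg adjustment), beside 32% of all genes tested that were lower and 32.9% that were higher. No gene of the 49 was higher at an unadjusted p under 0.05 in edgeR, limma-voom or DESeq2. The median log2 fold change of the 49 was -2.25, a 4.76-fold fall, while the median of all genes tested was 0.01. With libraries scaled by total counts only, the median of all genes moved to 0.22 and that of the 49 to -2.05, with all 49 still lower. The control and treated libraries did not overlap for any of the 49, beside 35.9% of all genes tested whose treated libraries were all lower. In bulk RNA, fewer cells in S phase and less of each RNA per cell cannot be told apart.

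With a change of 4-fold or more, that is a log2 fold change beyond 2 in size, and an FDR under 0.01, 28 of the 49 were lower and 0 higher, beside 5.84% and 3.81% of all genes tested. The 49 genes did not fall by equal amounts. Of the 49, 5 fell by less than 1 on the log2 scale, 16 by 1 to 2, 18 by 2 to 3 and 10 by 3 to 4. The level left after treatment ran from 6.26% of the control mean for Rrm2 to 76.3% for E2f1, with a median of 21.0%. Lig1 (-2.03) and Pold1 (-2.001) lay just inside the 4-fold threshold, and Tyms (-1.97) and Chaf1a (-1.97) lay just outside it. The summed level of the 49 genes was 2908 to 3000 CPM in the control libraries, 728 to 775 CPM in the treated libraries and 3758 to 3798 CPM in the ECs. The proliferation markers fell alongside. Mki67, which encodes the antigen Ki-67, had 213 ± 38.5 CPM in the controls, 20.6 ± 3.03 CPM after SB216763 and 393 ± 15.9 CPM in the ECs (SD, n = 3). Top2a, topoisomerase II alpha, had 326 ± 26.4, 28.6 ± 2.60 and 414 ± 8.59 CPM in the same order (SD, n = 3).

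**Figure D1:**
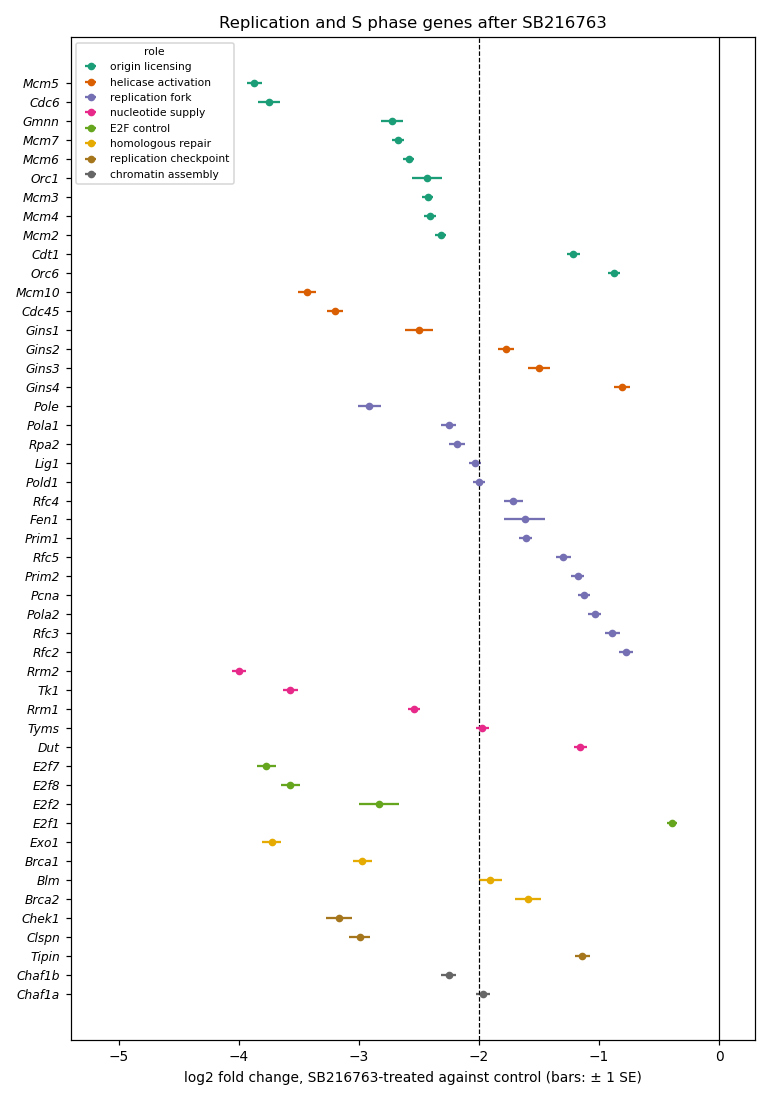
Log2 fold change of each of the 49 replication genes in SB216763-treated against control osteoblasts, grouped by role, with bars for the standard error of the edgeR fit (n = 3 libraries per group) and a dashed line at a 4-fold fall. All 49 points lie below 0, from -4.00 for Rrm2 to -0.39 for E2f1.

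**Figure D2:**
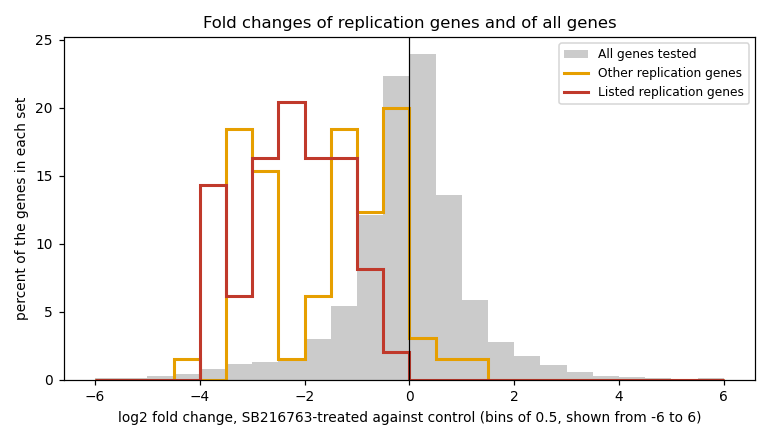
Distribution of the log2 fold change of SB216763-treated against control osteoblasts in bins of 0.5, as the percent of genes in each bin, for the 15531 genes tested, the 49 replication genes and the 65 other replication genes. The median of all genes is 0.01 and that of the 49 genes is -2.25.

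In origin licensing, all 11 genes fell after SB216763, with a median log2 fold change of -2.43, and 9 of them fell by at least 4-fold. Mcm5 (chr8:75109569-75128439), a subunit of the MCM2-7 ring, had 116, 125 and 117 CPM in the control libraries, 7.25, 8.65 and 8.50 CPM in the treated libraries and 225, 219 and 226 CPM in the ECs. Each treated library was far below each of the others, and the ECs were the highest. The log2 fold change of treated against control cells was -3.87 ± 0.064 (SE, n = 3 per group, edgeR with Benjamini-Hochberg adjustment, adjusted p = 6.67e-17). Orc6 (chr8:85299632-85308278), the smallest subunit of the origin recognition complex, had 42.6, 46.2 and 43.7 CPM in the controls, 23.7, 25.1 and 23.4 CPM after SB216763 and 45.9, 45.3 and 44.5 CPM in the ECs. The treated libraries were again the lowest, while the control and EC libraries overlapped. Orc6 fell the least of the 11, by 0.87 ± 0.048 on the log2 scale (SE, edgeR with Benjamini-Hochberg adjustment, adjusted p = 1.20e-10).

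Within the same step, Orc1, the largest subunit of the origin recognition complex, had a log2 fold change of -2.43 ± 0.12 (SE), beside the -0.87 of Orc6. Cdc6, the loader of the helicase, had 27.4, 26.6 and 28.7 CPM in the controls and 1.89, 1.72 and 2.53 CPM after SB216763, a log2 fold change of -3.75 ± 0.092 (SE). Its coefficient of variation between the treated libraries, 20.9%, was the highest of the 49, and the groups still did not overlap. Cdt1, its partner in loading, fell by 1.21 on the log2 scale. Gmnn, which encodes the Cdt1 inhibitor geminin, fell by 2.72. The ratio of Cdt1 to Gmnn per kilobase of transcript was accordingly 1.16 ± 0.0547 in the control libraries, 3.32 ± 0.339 in the treated libraries and 1.44 ± 0.141 in the ECs. The treated libraries were above all others in this ratio, which was chosen after the values were seen and was not tested. For the remaining MCM genes the log2 fold changes were close to each other, at -2.32 for Mcm2, -2.43 for Mcm3, -2.41 for Mcm4, -2.58 for Mcm6 and -2.67 for Mcm7.

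The MCM2-7 ring holds 1 copy of each of its 6 subunits, and the share of each gene in the summed level of the 6, in CPM per kilobase of transcript, described how their RNAs were balanced. Mcm5 made up 12.2 ± 0.314% of that sum in the controls, 5.03 ± 0.366% after SB216763 and 18.1 ± 0.252% in the ECs (SD, n = 3). Mcm6 held 27.6 ± 0.186%, 27.8 ± 0.586% and 19.4 ± 0.451% in the same order. Its share in control and treated libraries overlapped, unlike that of Mcm5. Mcm2 made up 16.6 ± 0.297% in the controls, 20.1 ± 0.328% after SB216763 and 15.4 ± 0.112% in the ECs. The RNA of Mcm5 was thus the least abundant of the 6 in treated cells, while in controls its share lay beside that of Mcm7 (12.0 ± 0.133%). These shares are a description and were not tested.

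**Figure D3:**
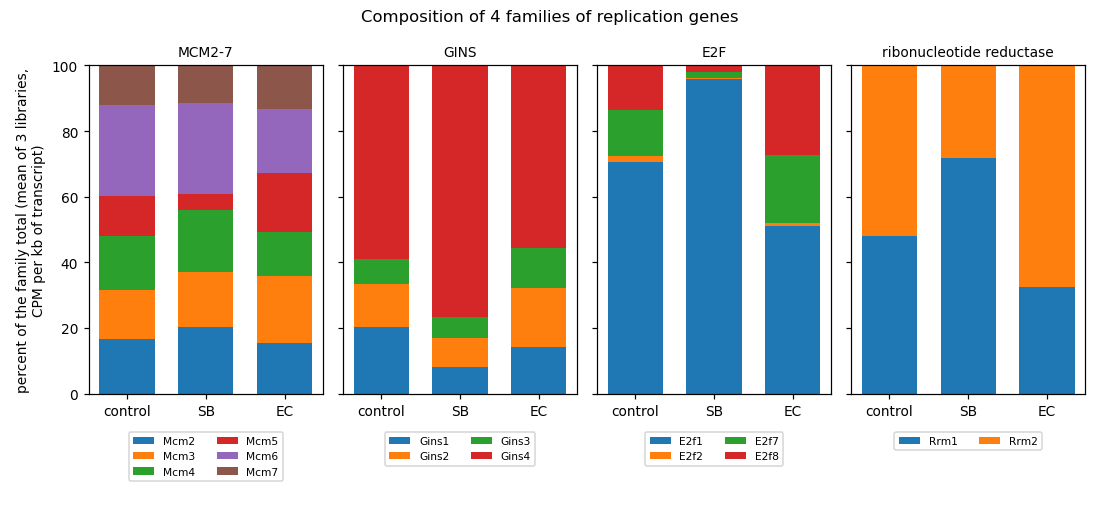
Share of each gene in the summed level of its family (CPM per kilobase of transcript, percent), as the mean of 3 libraries per group. Mcm5 shrinks from 12.2% to 5.03% of MCM2-7 after SB216763, and E2f1 grows from 70.7% to 95.7% of the 4 E2F genes.

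In helicase activation, all 6 genes fell, 3 of them by at least 4-fold, with a median log2 fold change of -2.14. Mcm10 (chr2:4989714-5012791), which is needed to start DNA unwinding, had 32.6, 34.1 and 32.9 CPM in the controls, 2.72, 3.52 and 2.97 CPM after SB216763 and 35.9, 35.1 and 37.8 CPM in the ECs. The control and EC libraries were close to each other, and all treated libraries were below both. Its log2 fold change of treated against control cells was -3.43 ± 0.077 (SE, edgeR with Benjamini-Hochberg adjustment, adjusted p = 1.60e-15). Gins4 (chr8:23226616-23237659), a subunit of the GINS complex, had 38.7, 40.4 and 36.6 CPM in the controls, 20.8, 24.0 and 21.4 CPM after SB216763 and 33.9, 32.3 and 36.7 CPM in the ECs. The treated libraries were the lowest, and the control and EC libraries overlapped. Gins4 fell by 0.81 ± 0.065 on the log2 scale (SE, edgeR with Benjamini-Hochberg adjustment, adjusted p = 1.17e-08). Cdc45, the partner of MCM and GINS in the active helicase, fell by 3.20. Of the other GINS genes, Gins1 fell the most, to 17.7% of its control level, Gins2 fell to 29.3% and Gins3 to 35.5%. Per kilobase, Gins4 was the most abundant of the 4 GINS genes in all 3 groups, with 58.9 ± 1.42% of their sum in the controls, 76.8 ± 0.941% after SB216763 and 55.6 ± 1.39% in the ECs (SD, n = 3). Of the 4097 exon bases of Gins2, 2758 overlap a gene on the opposite strand, so its counts are uncertain.

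At the replication fork, all 14 genes fell, with a median log2 fold change of -1.61, and 5 of them fell by at least 4-fold. Pole (chr5:110286306-110337474), the catalytic subunit of the leading-strand polymerase epsilon, had 31.2, 26.2 and 34.4 CPM in the controls, 4.04, 3.81 and 4.25 CPM after SB216763 and 109, 109 and 113 CPM in the ECs. The 3 groups were far apart, in the order treated, control, EC. Treated cells differed from controls by -2.91 ± 0.10 on the log2 scale (SE, edgeR with Benjamini-Hochberg adjustment, adjusted p = 1.88e-13). Rfc2 (chr5:134581366-134601805), a subunit of the clamp loader, had 40.4, 43.9 and 42.3 CPM in the controls, 25.0, 26.2 and 22.6 CPM after SB216763 and 79.2, 75.9 and 81.7 CPM in the ECs. The groups had the same order with a smaller spread, and Rfc2 fell by 0.78 ± 0.057 on the log2 scale (SE, edgeR with Benjamini-Hochberg adjustment, adjusted p = 4.53e-09).

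Among the polymerases, Pola1, the catalytic subunit of polymerase alpha, fell by 2.25, and Pola2, its accessory subunit, by 1.04. The primase genes Prim1 and Prim2 had log2 fold changes of -1.61 and -1.18. Pold1, the catalytic subunit of the lagging-strand polymerase delta, had -2.001. The catalytic subunits of the 3 replicative polymerases therefore each fell by at least 4-fold, Pold1 with a value at the threshold itself, as did Lig1 (-2.03), the ligase that joins Okazaki fragments, and Rpa2 (-2.18), which coats single-stranded DNA. Pcna, the sliding clamp, had 237, 252 and 232 CPM in the controls, 109, 117 and 104 CPM after SB216763 and 137, 144 and 137 CPM in the ECs, a log2 fold change of -1.13 ± 0.051 (SE) after treatment. Per kilobase of transcript it had the highest level of the 49 in control (158 CPM) and treated (72.5 CPM) cells. Pcna, like Tyms, has pseudogenes of the same name in the annotation, between which the counting could split reads. The clamp loader genes fell by 0.78 (Rfc2), 0.89 (Rfc3), 1.71 (Rfc4) and 1.30 (Rfc5), all less than 4-fold. Fen1, the flap endonuclease, had 2.66, 2.04 and 2.43 CPM in the controls and 0.803, 0.860 and 0.654 CPM after SB216763, and its log2 fold change of -1.62 ± 0.17 had the largest standard error of the 49. Of its 2422 exon bases, 2039 overlap genes on the opposite strand, and the strand setting of the counting is not given in the sources used here, so its level is uncertain.

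In nucleotide supply, all 5 genes fell, 3 of them by at least 4-fold, with a median log2 fold change of -2.54. Rrm2 (chr12:24708241-24714146), the regulatory subunit of ribonucleotide reductase, which is made in S phase, had 131, 142 and 128 CPM in the controls, 8.03, 8.50 and 8.61 CPM after SB216763 and 377, 375 and 371 CPM in the ECs. The treated libraries were far below all others, and the EC libraries were the highest. The log2 fold change of -4.00 ± 0.057 in treated against control cells was the lowest of the 49 (SE, edgeR with Benjamini-Hochberg adjustment, adjusted p = 1.58e-17). Dut (chr2:125247190-125258608), the dUTPase that keeps uracil out of DNA, had 52.6, 57.0 and 52.1 CPM in the controls, 23.6, 23.2 and 25.8 CPM after SB216763 and 49.9, 51.3 and 51.1 CPM in the ECs. It fell by 1.16 ± 0.052 on the log2 scale (SE, edgeR with Benjamini-Hochberg adjustment, adjusted p = 9.97e-12). Tk1, the thymidine kinase of S phase, fell by 3.57, Rrm1, the large subunit of ribonucleotide reductase, by 2.54, and Tyms, thymidylate synthase, by 1.97. Per kilobase, Rrm1 over Rrm2 was 0.926 ± 0.0358 in the control libraries, 2.54 ± 0.0947 in the treated libraries and 0.480 ± 0.0110 in the ECs. Rrm2 therefore had the higher level of the pair in controls and ECs and the lower in treated cells, a comparison chosen after the values were seen and not tested.

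The 4 listed E2F genes fell, with a median log2 fold change of -3.20, and they held both a very large and the smallest fall of the 49. E2f7 (chr10:110745439-110787384), a repressor, had 30.2, 27.9 and 31.6 CPM in the controls, 1.98, 2.35 and 2.21 CPM after SB216763 and 39.0, 39.3 and 40.6 CPM in the ECs. The treated libraries were far below both other groups, and the log2 fold change was -3.77 ± 0.079 (SE, edgeR with Benjamini-Hochberg adjustment, adjusted p = 8.10e-16). E2f8, the other listed repressor, had 20.2, 19.7 and 19.8 CPM in the controls and 1.86, 1.64 and 1.53 CPM after SB216763, a log2 fold change of -3.57 ± 0.078 (SE). E2f1 (chr2:154559407-154569892), an activator, had 73.8, 80.1 and 75.1 CPM in the controls, 58.2, 58.8 and 57.7 CPM after SB216763 and 50.2, 48.0 and 48.8 CPM in the ECs. The 3 groups were apart, but the treated libraries lay between the controls and the ECs, which no other gene of the 49 showed. E2f1 fell by 0.39 ± 0.044 on the log2 scale (SE, edgeR with Benjamini-Hochberg adjustment, adjusted p = 7.54e-07). E2f2, the other listed activator, had 3.32, 3.46 and 3.37 CPM in the controls, 0.459, 0.573 and 0.381 CPM after SB216763 and 1.60, 1.43 and 1.69 CPM in the ECs, the lowest level per kilobase of the 49 in each group, and fell by 2.83.

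The balance among the 4 listed E2F genes shifted with these unequal falls. E2f1 made up 70.7 ± 1.53% of the summed level of the 4 genes per kilobase in the controls, 95.7 ± 0.177% after SB216763 and 51.1 ± 0.909% in the ECs (SD, n = 3). The ratio of E2f1 to E2f7 per kilobase was 5.14 ± 0.544 in the control libraries, 53.8 ± 4.55 in the treated libraries and 2.48 ± 0.0890 in the ECs. Its ratio to E2f8 was 5.18 ± 0.295, 47.2 ± 4.55 and 1.88 ± 0.0716 in the same groups. Both ratios were highest in treated cells and lowest in ECs, with no overlap between groups, and were not tested, since they were chosen after the values were seen.

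**Figure D4:**
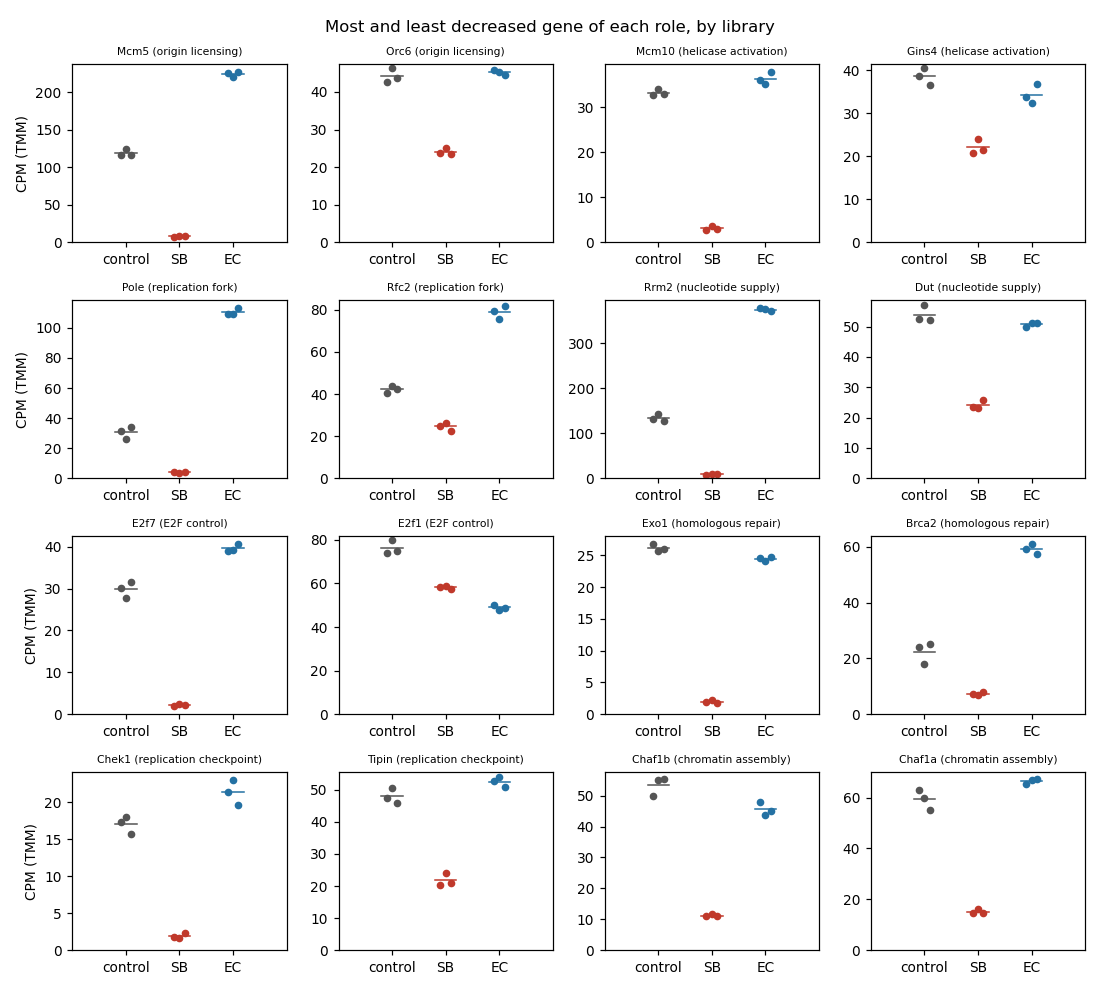
Level of the gene with the largest and the gene with the smallest fall in each role, in TMM-normalized CPM on an axis from 0, with a point for each of the 3 libraries per group and a line at their mean. The treated libraries sit below the control libraries for every gene shown, and for E2f1 they lie between 57.7 and 58.8 CPM, above the ECs.

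In homologous repair, all 4 genes fell, 2 of them by at least 4-fold, with a median log2 fold change of -2.44. Exo1 (chr1:175880581-175913489), an exonuclease that resects broken ends, had 26.8, 25.7 and 25.9 CPM in the controls, 1.98, 2.24 and 1.69 CPM after SB216763 and 24.6, 24.0 and 24.8 CPM in the ECs. The control libraries lay just above the EC libraries, and the treated libraries were all far below both. Exo1 had a log2 fold change of -3.73 ± 0.081 (SE, edgeR with Benjamini-Hochberg adjustment, adjusted p = 1.16e-15). Brca2 (chr5:150522630-150570329), a gene of double-strand break repair, had 24.2, 17.9 and 25.0 CPM in the controls, 7.34, 6.93 and 7.90 CPM after SB216763 and 59.3, 61.1 and 57.3 CPM in the ECs. Its coefficient of variation among the control libraries, 17.3%, was the highest of the 49 there. Brca2 fell by 1.59 ± 0.11 on the log2 scale (SE, edgeR with Benjamini-Hochberg adjustment, adjusted p = 1.73e-09). Brca1, which acts before Brca2 in the same pathway, fell by 2.97, and Blm, a helicase that resolves recombination intermediates, by 1.90.

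All 3 replication checkpoint genes and both chromatin assembly genes fell, with median log2 fold changes of -2.99 and -2.11, and 2 of the former and 1 of the latter fell by at least 4-fold. Chek1 (chr9:36708482-36727065), the kinase activated at stalled forks, had 17.4, 18.1 and 15.7 CPM in the controls, 1.78, 1.69 and 2.26 CPM after SB216763 and 21.4, 23.0 and 19.7 CPM in the ECs, and a log2 fold change of -3.16 ± 0.11 (SE, edgeR with Benjamini-Hochberg adjustment, adjusted p = 2.81e-13). Clspn, which encodes claspin, the adaptor that brings Chek1 to its activator, fell by 2.99. Tipin (chr9:64281581-64305424), a fork protection protein, had 47.5, 50.6 and 45.9 CPM in the controls, 20.4, 24.1 and 20.9 CPM after SB216763 and 52.6, 53.9 and 50.9 CPM in the ECs. It fell by 1.14 ± 0.061 on the log2 scale (SE, edgeR with Benjamini-Hochberg adjustment, adjusted p = 8.16e-11), less than the other checkpoint genes. Chaf1b and Chaf1a encode subunits of CAF-1, which places histones on new DNA. Chaf1b (chr16:93883901-93906115) had 49.8, 55.1 and 55.4 CPM in the controls, 11.0, 11.7 and 10.9 CPM after SB216763 and 48.0, 43.8 and 44.9 CPM in the ECs, and fell by 2.25 ± 0.060 on the log2 scale (SE). Chaf1a (chr17:56040439-56072289) had 62.9, 60.0 and 55.0 CPM in the controls, 14.7, 16.1 and 14.8 CPM after SB216763 and 65.4, 66.9 and 67.4 CPM in the ECs, and fell by 1.97 ± 0.057 (SE). In both, no treated library overlapped a control or EC library. Of the 8854 exon bases of Chaf1a, 4648 overlap a gene on the opposite strand.

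The fall was described beside 2 properties of the genes. The first, E2F letters in the promoter, is not independent of a choice made partly by E2F control. The 16 genes with E2F letters in their promoter had a median log2 fold change of -2.43, with a range from -3.87 to -0.89, and the 23 genes with a promoter but without these letters had a median of -1.97 and a range from -4.00 to -0.39. The ranges overlapped almost completely, and Rrm2, with the largest fall, and E2f1, with the smallest, were both among the genes without the letters. The second was the level itself. Per kilobase of transcript the 49 genes spanned 0.714 to 158 CPM in the controls, 0.0994 to 72.5 CPM after SB216763 and 0.332 to 171 CPM in the ECs. E2f2 was the lowest in each group, Pcna the highest in control and treated cells, and Rrm2 the highest in ECs. By order of level, Rrm2 went from place 3 of 49 in the controls to place 27 after SB216763, Tk1 from place 5 to 24 and Mcm5 from place 9 to 31, while E2f1 went from place 13 to 2 and Orc6 from place 11 to 3. Neighbours in this order can lie within the spread of their libraries, such as Mcm2 at 48.0 CPM and Mcm4 at 47.8 CPM per kilobase in the controls, so single places carry little weight.

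A wider list of 65 other replication and S phase genes, among them other subunits of the same complexes, cyclins, Fanconi anemia genes and E2F factors, was read from the same fit. Of the 65, 57 (87.7%) were lower and 2 (3.08%) higher after SB216763 at an FDR under 0.01, beside 32% and 32.9% of all genes tested. By at least 4-fold, 24 (36.9%) were lower, beside 5.84% of all genes. The median log2 fold change of the 65 was -1.24. The 3 with the lowest values were Ccna2, the S phase cyclin A2, at -4.13 ± 0.059, Chtf18, part of an alternative clamp loader, at -3.41 ± 0.075, and Fancd2, a Fanconi anemia protein that acts at blocked forks, at -3.40 ± 0.11 (SE). The 2 genes that rose were Rrm2b and Rmi1. Rrm2b encodes the p53-inducible small subunit that can replace Rrm2 in ribonucleotide reductase outside S phase. It had 16.8, 15.7 and 13.8 CPM in the controls, 34.3, 35.0 and 32.7 CPM after SB216763 and 29.9, 30.1 and 25.6 CPM in the ECs. All treated libraries were above all control libraries, with a log2 fold change of 1.12 ± 0.074 (SE, edgeR with Benjamini-Hochberg adjustment, adjusted p = 1.12e-09), so the pair of small subunits moved in opposite directions. Rmi1, a partner of the Blm helicase, had 9.94, 10.1 and 8.89 CPM in the controls and 12.2, 11.6 and 11.3 CPM after SB216763, a log2 fold change of 0.27 ± 0.079 (SE, edgeR with Benjamini-Hochberg adjustment, adjusted p = 0.00671). The Rmi1 call did not hold without control replicate 1 (adjusted p = 0.0131 by edgeR), control replicate 3 (0.0339), SB216763 replicate 1 (0.0336), SB216763 replicate 2 (0.0167) or EC replicate 1 (0.0101). The next highest value among those that passed was -0.27, for Pold4, a small subunit of polymerase delta. Orc3, Orc5, Mcm9, Atrip, E2f4 and E2f6 did not pass the threshold. With libraries scaled by total counts only, 52 of the 65 were lower and 5 higher.

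Control osteoblasts were compared with ECs to place the levels of untreated cells beside those of the other cell type. Most of the replication genes that differed were higher in ECs. At an FDR under 0.01, 29 of the 49 genes were lower in control osteoblasts than in ECs and 7 were higher, beside 39% and 37.9% of all genes tested. None differed by 4-fold or more, in either direction, beside 13.5% lower and 9.87% higher of all genes. The median log2 fold change of the 49 was -0.31, and the median of all genes was -0.01. The lowest values were those of Pole (-1.86 ± 0.071), Rrm2 (-1.49 ± 0.047) and Brca2 (-1.41 ± 0.090), which were therefore higher in ECs (SE, n = 3 per group, edgeR). The 7 genes that were higher in osteoblasts were E2f2 (1.09 ± 0.13), Pcna (0.79 ± 0.051), E2f1 (0.64 ± 0.044), Gins1 (0.60 ± 0.093), Rpa2 (0.49 ± 0.060), Chaf1b (0.23 ± 0.052) and Mcm6 (0.17 ± 0.043). The calls of Chaf1b (0.10, adjusted p = 0.0911 by edgeR) and Mcm6 (0.04, adjusted p = 0.302) were lost with libraries scaled by total counts only, and that of Mcm6 also without EC replicate 1 (0.15, adjusted p = 0.0193). Both E2F activators among the 49 were thus higher in osteoblasts. Both repressors among the 49, E2f7 (-0.41) and E2f8 (-0.82), were higher in ECs. The remaining 13 genes did not pass the threshold, of which Blm was nearest to 0 (0.02 ± 0.078, adjusted p = 0.779 by edgeR with Benjamini-Hochberg adjustment).

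Treated osteoblasts were compared with ECs on the same genes. At an FDR under 0.01, 48 of the 49 were lower in treated osteoblasts and 1 was higher, beside 40.3% and 38.3% of all genes tested. By at least 4-fold, 32 were lower and 0 higher, beside 15% and 10.3% of all genes. The gene that was higher was E2f1, at 0.25 ± 0.045 (SE, edgeR with Benjamini-Hochberg adjustment, adjusted p = 9.17e-05). The lowest log2 fold changes were those of Rrm2 (-5.48 ± 0.059), Mcm5 (-4.78 ± 0.065), Pole (-4.78 ± 0.092) and E2f8 (-4.39 ± 0.075). The highest after E2f1 were those of Pcna (-0.34 ± 0.051), Gins4 (-0.64 ± 0.065) and Orc6 (-0.91 ± 0.048). The median of the 49 was -2.41, and the median of all genes was -0.02. Of the 65 other replication genes, 52 (80%) were lower and 9 (13.8%) higher in treated osteoblasts than in ECs, beside 40.3% and 38.3% of all genes. For control osteoblasts 30 (46.2%) were lower and 22 (33.8%) higher, near the 39% and 37.9% of all genes. The comparisons share libraries, so these values stand side by side and are not independent of each other.

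**Figure D5:**
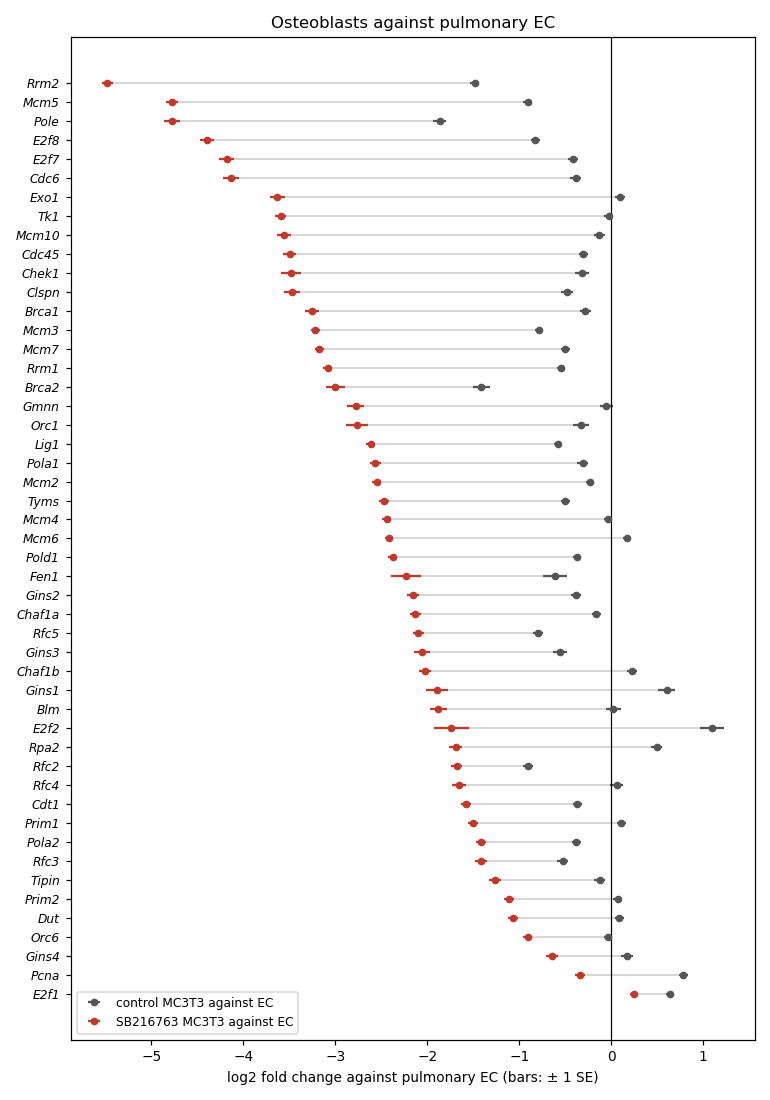
Log2 fold change of each of the 49 replication genes against ECs, for control osteoblasts and for SB216763-treated osteoblasts, which are compared with the same EC libraries. The control values lie between -1.86 and 1.09, and the treated values between -5.48 and 0.25, with E2f1 as the one treated value above 0.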

How the data were processed

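The submitters' processing notes name STAR 2.5.3a and GRCm38 for total RNA libraries sequenced on an Illumina instrument. The authors deposited raw read counts per gene, whole numbers without normalization, for 50686 genes. The annotation and strand setting of the counting are not given in the sources used here, so counts of overlapping genes or pseudogenes are uncertain. Exons of 16 of the 49 genes overlap another gene in GENCODE release M21. Symbols and coordinates were found there for 50462 genes. Groups were taken from the treatment and source labels, since the protocol text is the same for all samples.

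Counts of all 9 libraries entered 1 fit in edgeR 4.0.16 (R 4.3.3): filterByExpr, TMM, and the quasi-likelihood test with Benjamini-Hochberg adjustment over 15531 genes. Calls needed an FDR under 0.01 and, for 4-fold calls, a log2 fold change of 2 or more in size, the thresholds of the study's methods. Log2 fold changes used a prior count of 0.125, and the SE is the log2 fold change divided by the root of F. Levels per kilobase used the principal transcript. The level of 3 counts covers counting error only, while the SE and SD include the spread between these libraries. Other settings tried were DESeq2 1.42.0, limma-voom (limma 3.58.1), other scalings, filters and thresholds, a replicate block, fits of 2 groups and leaving out each library.

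Genes were named by rule: in each role those with the lowest and highest log2 fold change in every library, the others by value or range, and of the other replication genes the 3 lowest and 3 highest that passed. The gene set and lists were chosen with earlier results of these data known. Genes given with library values outside that rule (Cdc6, Pcna, Fen1, E2f8 and E2f2), and the ratios and family shares, were chosen after their values were seen. All pairs of replicates differed by more than sampling noise, and by unequal amounts. The chi-square per gene was 29.1 to 115 for control pairs, 3.35 to 29.1 for treated pairs and 3.01 to 4.88 for EC pairs. This value also rises with depth.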

Additional observations from a re-analysis of the deposited data

How the results depend on the processing

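For SB216763-treated against control osteoblasts, all 49 genes were lower and 0 higher at an FDR under 0.01 in each alternative run, including limma-voom, DESeq2 and each fit that left out 1 library (49 to 49). The 4-fold count of 28 was 28 to 30 without 1 library, 25 with library size only, 27 with upper-quartile scaling and 44 when a 2-fold change was asked for. Against ECs, 48 treated values were lower and 1 higher in each alternative, and the 4-fold count of 32 was 31 to 33 without 1 library. For control osteoblasts against ECs, the 29 lower and 7 higher genes became 26 to 28 and 6 to 8 without 1 library and 33 and 5 with library size only, and by at least 2-fold 3 were lower and 1 higher. The share of all genes tested that passed at 2-fold was not counted, so the 2-fold counts stand without it.

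In control osteoblasts against ECs, 8 genes with differences near 0 changed sign, none of them past the threshold, and the cause was not tested. With library size only, which moved the median of all genes in that comparison to -0.13, the log2 fold changes were -0.0140 for Prim1, -0.0554 for Prim2, -0.0668 for Rfc4, -0.0362 for Dut, -0.102 for Blm and -0.0307 for Exo1. Without 1 library they ranged from -0.111 to 0.00482 for Gmnn (above 0 without control replicate 1) and from -0.0773 to 0.0170 for Tk1 (above 0 without control replicate 1 or 3). Calls that depended on the setting in that comparison were those of Orc1, Orc6, Mcm4, Mcm6, Mcm10, Gins4, Chek1, Tipin, Chaf1a and Chaf1b.

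The replicate numbers are shared by the groups, and nothing in the sources used here says whether they pair the samples. Correlations over 3 libraries per group cannot decide this. The correlation of same-numbered deviations was 0.00286 to 0.123 for control and treated libraries, with 2 of 3 libraries closest to their own number, and its mean was -0.00272 for control and EC and -0.0152 for treated and EC libraries. With the replicate block the counts were 49 lower and 28 by 4-fold, 29 lower and 7 higher, and 48 lower, 1 higher and 32 by 4-fold in the 3 comparisons, and no count changed. E2f2 and Fen1 had the fewest counts of the 49, with as few as 14 and 24 in a library.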
